A study of Homo sapiens with 40 samples.

Results

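A set of 40 marker genes that separate epithelial, mesenchymal and airway cell types was followed in BEAS-2B, a human bronchial epithelial line immortalised with a hybrid virus. The genes (8 keratins, 14 cell junction genes, 4 epithelial regulators, 2 mesenchymal proteins, 6 transcription factors of the epithelial to mesenchymal transition and 6 airway transcription factors) were chosen by name, and each matched 1 row of a table of 62263 genes. The RNA came from Frac-seq, in which total RNA (input) is compared with RNA bound to polyribosomes (polysome). A constitutive line carrying a control hairpin (shControl) and a constitutive line carrying a hairpin against IGF2BP3 (shIGF2BP3, here the knockdown line) were grown in RPMI with 10% serum, kept overnight in 2% serum, and harvested 24 h after IL-13 at 100 ng/ml or without it. Fraction, treatment and line gave 8 groups of 5 libraries. Titles of the samples use siC and siIGF2BP3, while hairpin lines are described for growth. There was 1 line per hairpin, so the hairpin and any other difference between the lines cannot be told apart, and nothing in the labels says that replicates were separate cultures.

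Epithelial cells are held together by E-cadherin (CDH1), tight junctions and desmosomes, and carry keratin filaments whose members differ by cell type. Airway basal cells are known for TP63, KRT5 and KRT14, and simple or luminal epithelia for KRT8, KRT18, KRT19 and KRT7. In the epithelial to mesenchymal transition, transcription factors of the SNAI, ZEB and TWIST families repress CDH1, while N-cadherin (CDH2) and vimentin (VIM) rise. IL-13 is a type 2 cytokine that drives mucous differentiation in airway epithelium.

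Total counts ranged from 14044352 to 40441061 in input and from 1816848 to 34082191 in polysome libraries, of which 3, all from the knockdown line, had under 5000000. IGF2BP3 itself averaged 35.2 ± 11.3 CPM (counts scaled to library size; SD, n = 5) in unstimulated and 35.4 ± 6.72 in IL-13-treated input of the control line, against 24.9 ± 3.02 and 25.8 ± 6.29 in the knockdown line. Its input ranges overlapped between the lines, and its polysome means were 11.2 and 10.6 CPM in the control line and 11.2 and 9.15 in the knockdown line. These are counting measurements on bulk RNA, in which fewer cells of a type and less RNA per cell cannot be told apart.

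Levels between genes were compared in TPM, a unit scaled for transcript length and depth. In input, 5 of the 40 genes had a median of at least 100 TPM over the 20 libraries, 7 lay from 10 to 100, 15 from 1 to 10, 6 from 0.1 to 1 and 7 under 0.1. The 27 genes at 1 TPM or more included all 4 simple epithelial keratins, all 5 desmosome genes, both mesenchymal proteins and all 6 transition factors, but 1 of the 6 airway transcription factors. In polysome RNA, 24 of the 40 reached a median of 1 TPM.

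**Figure D1:**
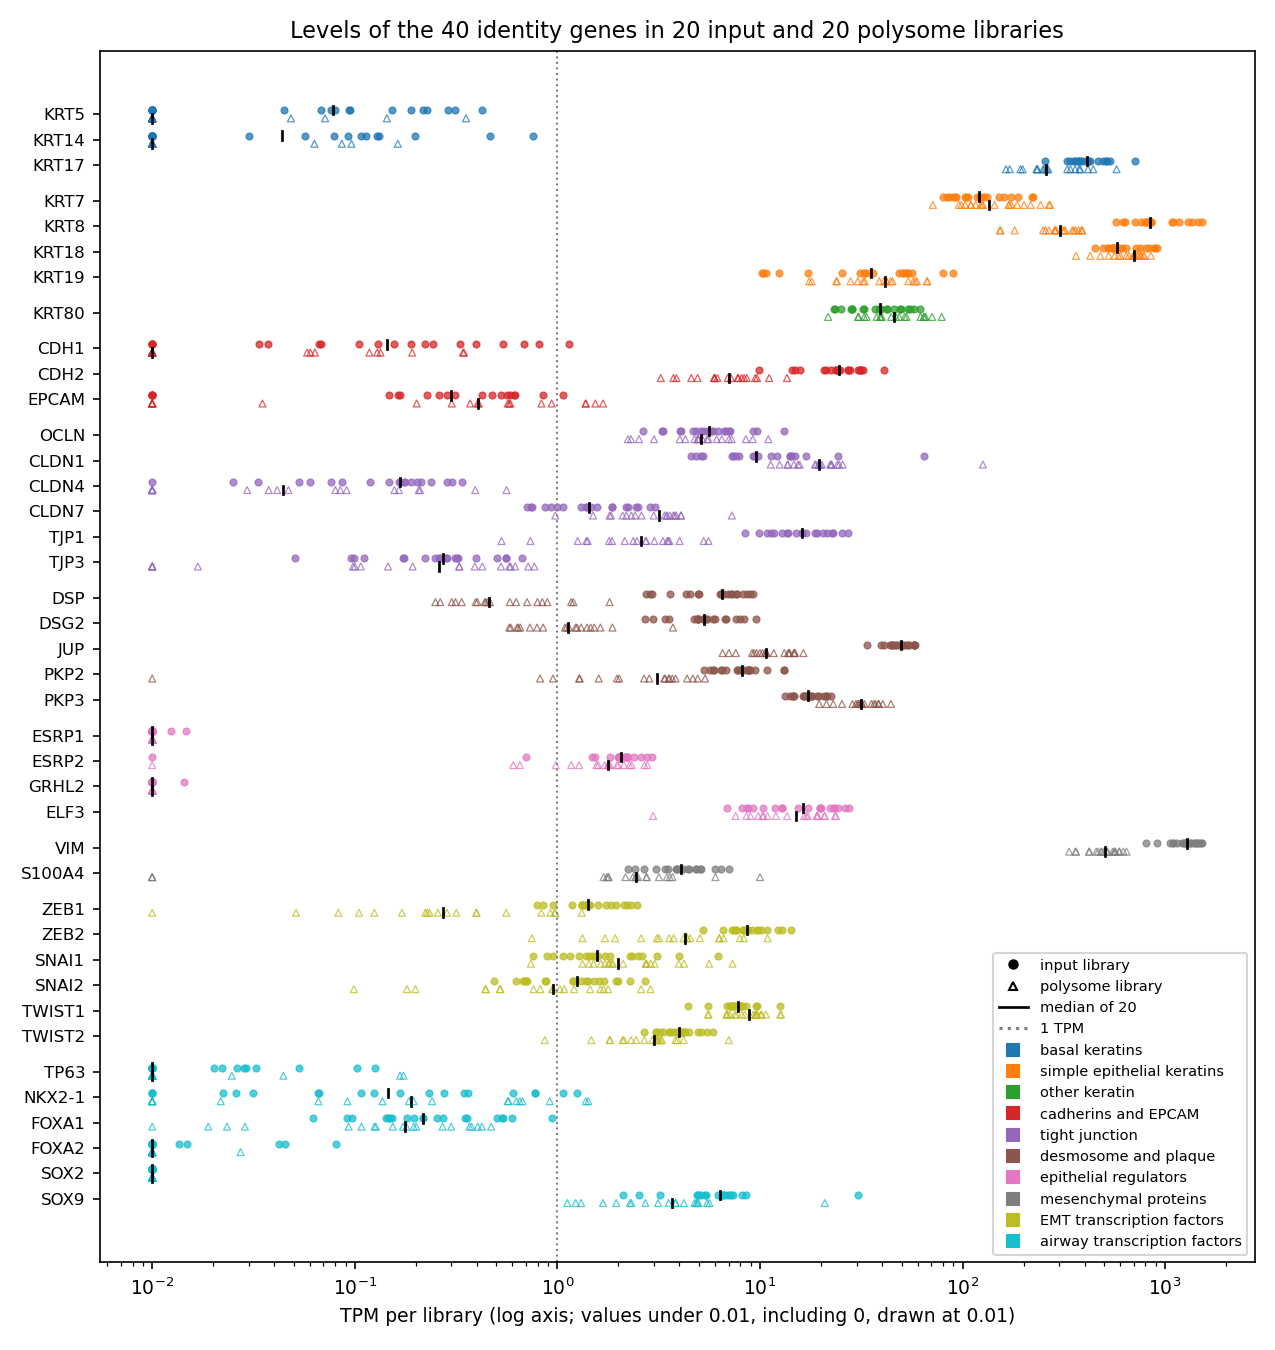
TPM of the 40 genes in each of 20 input libraries (filled circles) and 20 polysome libraries (open triangles), on a log axis, grouped and coloured by role, with black bars at the medians and a dotted line at 1 TPM. KRT8, KRT18, KRT17, KRT7 and VIM lay at the right, with input medians of at least 100 TPM, while CDH1, EPCAM, KRT5, KRT14, TP63 and most airway factors lay under 1 TPM.

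Simple epithelial keratins and vimentin were abundant together. VIM, the main intermediate filament protein of mesenchymal cells, had the highest input median of the 40, 1278 TPM (lowest 809, highest 1525). KRT8 had a median of 845 TPM (573 to 1519) and KRT18, the partner with which it forms filaments, 579.8 TPM (449.8 to 909.9). VIM exceeded KRT18 in 20 of 20 input libraries and KRT8 in 17 of 20. The other simple keratins were lower: KRT7 had a median of 120 TPM (80.4 to 222) and KRT19 35.3 TPM (10.2 to 90.2).

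Of the 3 keratins listed for basal cells, KRT17 alone was abundant, at 410.1 TPM (256 to 711) in input. KRT17 is also made by stressed and injured epithelium. KRT5 had a median of 0.0778 TPM (0 to 0.424) and between 0 and 26 counts, and KRT14 0.0436 TPM (0 to 0.754) and between 0 and 25 counts. The basal regulator TP63 had 0 counts in 11 of 20 input and 16 of 20 polysome libraries, and at most 7 counts in any library. Among other basal markers, ITGB4, the hemidesmosome integrin, had a median of 96.5 TPM, S100A2 41.8 TPM and DLK2 12.7 TPM, and 6 of 9 genes of that list reached 1 TPM. KRT80, a keratin known from many epithelial cell lines, had a median of 39.2 TPM (23.1 to 61.5).

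E-cadherin RNA was scarce beside N-cadherin RNA. CDH2 had a median of 24.6 TPM (9.86 to 40.8) in input, and CDH1 0.143 TPM (0 to 1.14). The lowest CDH2 library lay above the highest CDH1 library, and CDH2 exceeded CDH1 in 20 of 20 libraries of each fraction. EPCAM, an adhesion protein of most epithelia, had a median of 0.299 TPM (0 to 1.06). By unstimulated and treated groups, median CDH1 was 0.396 and 0.0678 TPM in control input and 0.105 and 0.13 TPM in knockdown input, all under CDH2 in the same groups. Other cadherins did not follow the same division: P-cadherin (CDH3), known from basal epithelium, had a median of 8.28 TPM in input and 10.3 TPM in polysome, and CDH11, a cadherin of mesenchymal cells, 0.117 TPM in input.

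Junction genes other than CDH1 were mostly expressed. All 5 desmosome genes exceeded 1 TPM in every input library: the plaque protein JUP, shared with adherens junctions, had a median of 49.5 TPM, the plakophilins PKP3 and PKP2 17.2 and 8.12 TPM, the plaque linker DSP 6.52 TPM and the desmosomal cadherin DSG2 5.32 TPM. Among the 6 tight junction genes, the scaffold TJP1 had a median of 16.2 TPM, CLDN1 9.55, OCLN 5.62 and CLDN7 1.43, while the scaffold TJP3 had 0.273 and CLDN4 0.166 TPM. The epithelial regulators were split. The ETS factor ELF3 had a median of 16.3 TPM and the splicing regulator ESRP2 2.06 TPM. Its paralogue ESRP1 and the factor GRHL2 had at most 1 count in any input library and 0 counts in all polysome libraries.

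All 6 transition factors were measured in every input library, at low levels. Their input medians were 8.6 TPM for ZEB2, 7.75 for TWIST1, 4 for TWIST2, 1.57 for SNAI1, 1.41 for ZEB1 and 1.25 for SNAI2. S100A4, a calcium-binding protein often used as a fibroblast marker, had a median of 4.09 TPM. Of the airway transcription factors, SOX9, a factor of the distal lung epithelium and cartilage, had a median of 6.38 TPM (2.12 to 30.6). The forkhead factor FOXA1 had 0.217 TPM and NKX2-1, the lung and thyroid homeodomain factor, 0.146 TPM. FOXA2 had at most 4 counts in a library, and SOX2, a proximal airway factor, had 0 counts in all 40 libraries.

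Markers of differentiated airway and other cells were set beside these levels. None of 11 secretory and goblet markers reached a median of 0.1 TPM in input, MUC5AC having 0.00208 TPM and SCGB1A1 at most 1 count, and their summed level ranged from 0 to 0.315 TPM over the input libraries of the 4 groups. Of 10 ciliated markers, CAPS (1.72 TPM), MCIDAS (1.31) and TPPP3 (1.05) reached 1 TPM while the ciliary regulator FOXJ1 had 0.0356 TPM. Of 10 alveolar markers ABCA3 did (11.8 TPM), with the surfactant gene SFTPC at 0 in 17 of 20 input libraries, and none of 9 rare-cell markers did. The leukocyte gene PTPRC had 0 counts in all input libraries, although CD74 (25.9 TPM) and CD68 (8.23 TPM) of the immune list were measured. In the wider lists, 31 of 57 other epithelial genes reached 1 TPM, and 29 of 43 other mesenchymal genes did, led by S100A6 at 1532 TPM.

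A low-count filter left 34 of the 40 genes for testing in input and 31 in polysome. SOX2, TP63, KRT14, GRHL2, FOXA2 and ESRP1 were not tested in either fraction, nor CDH1, CLDN4 and KRT5 in polysome. Tests were edgeR's quasi-likelihood test with Benjamini-Hochberg adjustment over all genes, with a gene called at an adjusted p under 0.05. Differences are log2, with standard errors derived from the test's F statistic.

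The first question was which identity genes IL-13 changed. KRT18 was the only one of the 34 called in input, as the mean effect over both lines, and KRT8 moved by a similar size without being called. Over all genes, 38 of 16044 (0.237%) were called, each of which rose. Of the 34, 4 had an unadjusted p under 0.05, against 4.07% of all genes. In control input, KRT18 had 644, 501, 532, 679.8 and 529 CPM unstimulated and 716, 657, 1005, 807 and 1084 CPM with IL-13. In knockdown input it had 640.4, 624, 449.6, 562 and 540.1 CPM unstimulated and 1067, 963, 529, 836 and 909 CPM with IL-13. Most treated libraries were high, but the ranges overlapped in both lines. KRT18 rose by 0.58 ± 0.12 (1.49-fold; edgeR, adjusted p = 0.0431).

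KRT8 followed the same pattern without passing the test. Its control input libraries had 858, 776, 1016, 1338 and 1002 CPM unstimulated and 1255, 1135, 1884, 1723 and 2055 CPM with IL-13. Its knockdown input libraries had 1233, 1259, 746, 1012 and 1115 CPM unstimulated and 2309, 2035, 1013, 1484 and 1947 CPM with IL-13. The third knockdown replicate was the lowest of its group in both keratins, with and without IL-13. The KRT8 difference was 0.69 ± 0.148 (edgeR, adjusted p = 0.0565). Both adjusted p-values were close to the threshold. KRT18 lost its call in 15 of 20 fits that each left out 1 input library (adjusted p 0.0044 to 0.101), and KRT8 gained one in 4 of 20 (0.00886 to 0.124).

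The effects in the separate lines were nearly equal. For KRT18 the IL-13 difference was 0.55 ± 0.17 in the control line and 0.60 ± 0.17 in the knockdown line, and for KRT8 0.68 ± 0.209 and 0.71 ± 0.209, none called (edgeR, adjusted p 0.571 to 0.831). The difference between the lines was 0.06 for KRT18 (95% interval -0.45 to 0.56) and 0.03 for KRT8 (-0.60 to 0.65). None of the 34 genes was called in either line alone by edgeR or DESeq2, against 12 of 16044 (0.0748%) and 15 of 16044 (0.0935%) over all genes. Of the 34, 4 and 2 had an unadjusted p under 0.05, against 4.01% and 1.97% of all genes. In the test of a different IL-13 effect between lines, 0 of 34 were called in input and 0 of 31 in polysome by edgeR or DESeq2 (0.0% of all genes by edgeR in each). None had an unadjusted p under 0.05, against 1.48% and 0.988% of all genes. KRT8 and KRT18 have many near-identical pseudogenes, between which counting can split reads; in input these rows held a median of 0.248% of the joint counts for KRT8 and 0.209% for KRT18.

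In polysome RNA no identity gene was called for IL-13 by edgeR or DESeq2, against 21 of 14582 genes (0.144%), and 5 of the 31 had an unadjusted p under 0.05, against 2.45% of all genes. The fitted differences were 0.38 ± 0.155 for KRT8 and 0.31 ± 0.133 for KRT18, with intervals of 0.05 to 0.71 and 0.02 to 0.59. KRT7 had a difference of -0.57 ± 0.196 in polysome and -0.37 ± 0.189 in input. In single lines, 0 of 31 were called in polysome by either tool, against 0.0617% of all genes in the control line and 0.0549% in the knockdown line, with 3 and 2 at an unadjusted p under 0.05 (2.23% and 1.21% of all genes). A change of the IL-13 effect from input to polysome was called for 0 of 34 genes by edgeR or DESeq2 (0.0% of all genes by edgeR), with none at an unadjusted p under 0.05 (1.64% of all genes).

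**Figure D2:**
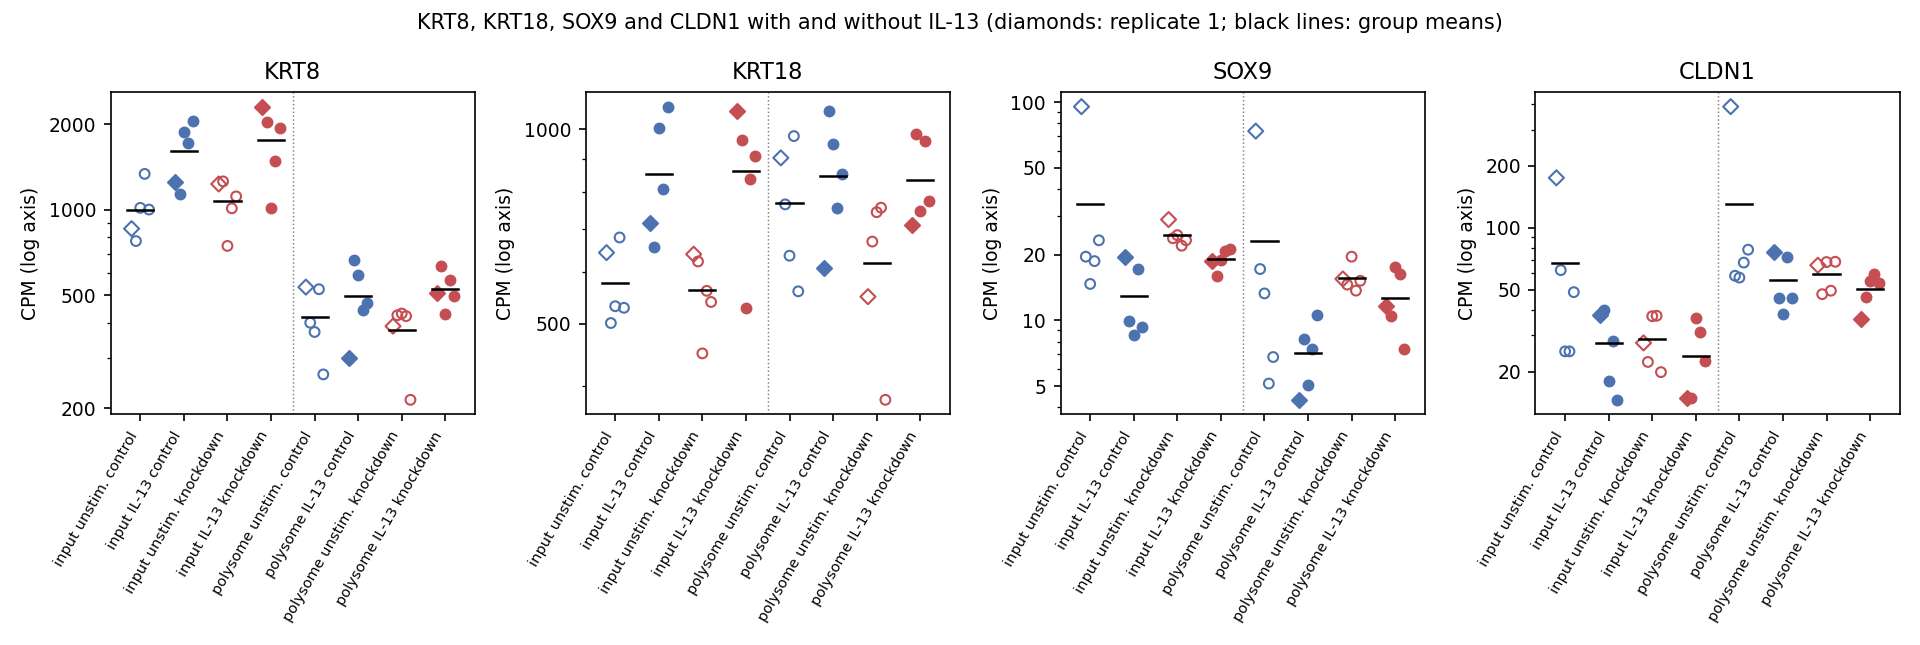
CPM on log axes in each library by group for KRT8, KRT18, SOX9 and CLDN1 (blue, control line; red, knockdown line; open, unstimulated; filled, IL-13; diamonds, replicate 1; black lines, means of 5). KRT8 and KRT18 lay higher with IL-13 in input with overlapping ranges, and for SOX9 and CLDN1 a single unstimulated control replicate lay far above the others in both fractions.

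SOX9 and the tight junction claudin CLDN1 had the next smallest p-values, and both moved with 1 replicate. SOX9 in control input had 95.4, 19.6, 14.7, 18.7 and 23.3 CPM unstimulated and 19.5, 9.92, 8.61, 17.2 and 9.34 CPM with IL-13. CLDN1 had 175, 62.3, 25.1, 25.1 and 48.7 CPM unstimulated and 37.8, 40, 18.1, 28.1 and 14.6 CPM with IL-13. Replicate 1 of the unstimulated control group was the highest for both genes, and again in polysome, where it had 73.7 CPM of SOX9 against 5.14 to 17.2 and 388 CPM of CLDN1 against 57.3 to 78.3. The mean IL-13 differences in input were -0.90 ± 0.28 for SOX9 and -0.79 ± 0.318 for CLDN1, neither called (edgeR, adjusted p = 0.519 and 1). Without that replicate they were -0.46 and -0.41.

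The remaining junction and mesenchymal genes gave small IL-13 differences with intervals around 0 in input. For VIM the difference was -0.01 (95% interval -0.23 to 0.20), for JUP 0.03 (-0.15 to 0.22), for CDH2 -0.21 (-0.53 to 0.12), for ZEB1 -0.11 (-0.43 to 0.20) and for KRT17 -0.09 (-0.42 to 0.24). For the sparse CDH1 the interval ran from -2.07 to 2.05, so a change of several fold either way was not detectable at this depth. Over the 34 tested genes, 25 differences were negative and 9 positive, with a median of -0.10 against -0.008 for all genes. The genes share the same libraries, so their signs are not independent, and no shift of the set is read from the count. Of the 44 other epithelial and 34 other mesenchymal genes tested in input, none was called by edgeR (0.237% of all genes), with 6 and 7 at an unadjusted p under 0.05 (4.07% of all genes).

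The second question was how the lines differed. NKX2-1 was lower and ELF3 higher in the knockdown line, in both fractions, and no other identity gene was called. In input these were 2 of 34, against 224 of 16044 genes (1.4%), of which 149 were higher (0.929%) and 75 lower (0.467%). In polysome they were 2 of 31, against 40 of 14582 (0.274%). At an unadjusted p under 0.05 there were 7 of 34 in input (11.6% of all genes) and 3 of 31 in polysome (8.86% of all genes).

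NKX2-1 was low in every group and close to 0 in the knockdown line. Control input had 0.393, 1.79, 2.12, 0.582 and 1.47 CPM unstimulated and 1.18, 0.642, 0.392, 0.684 and 1.53 CPM with IL-13, from 11 to 80 counts a library. Knockdown input had 0.0474, 0.231, 0, 0.054 and 0.121 CPM unstimulated and 0, 0.0392, 0.167, 0.112 and 0 CPM with IL-13, from 0 to 5 counts. The input ranges of the lines did not overlap in either treatment. The mean difference was -3.69 ± 0.561 in input (edgeR, adjusted p = 0.00109) and -3.58 ± 0.678 in polysome (adjusted p = 0.02). With so few counts the fitted size depends on the prior count, and the 95% interval in input ran from -4.88 to -2.50. In polysome the unstimulated ranges overlapped (0.313 to 3.2 CPM in the control line, 0 to 0.449 in the knockdown line) and the IL-13 ranges did not (1.18 to 3.35 and 0 to 0.15). The polysome call was lost without the 3 shallow libraries (adjusted p = 0.0797) and without replicate 2 of the IL-13 knockdown group (0.0581).

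ELF3 moved the other way at a level above 10 CPM in all input libraries. Control input had 11.3, 15.1, 20.6, 39.3 and 18.2 CPM unstimulated and 18, 16.2, 34.6, 20.5 and 27 CPM with IL-13. Knockdown input had 54.1, 43, 29.9, 40.3 and 42.2 CPM unstimulated and 51.9, 44.8, 21.3, 36.5 and 38.7 CPM with IL-13. The knockdown libraries were mostly higher with overlap in both treatments. In polysome, IL-13 groups did not overlap (7.58 to 23.4 CPM in the control line, 29.9 to 41.4 in the knockdown line), and unstimulated groups overlapped slightly (17.7 to 35.9 and 35.2 to 52.7). ELF3 rose by 0.86 ± 0.204 in input (1.81-fold; edgeR, adjusted p = 0.0348) and by 0.90 ± 0.18 in polysome (1.86-fold; adjusted p = 0.0321). The input call was lost in 14 of 20 fits that each left out 1 library (adjusted p 0.0034 to 0.078), and the polysome call in 10 of 20 such fits (0.0238 to 0.0819) and without the shallow libraries (0.0697). An antisense row took a median of 16.6% of the counts shared with ELF3 in input, and how strand was used in quantification is not given in the sources used here.

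**Figure D3:**
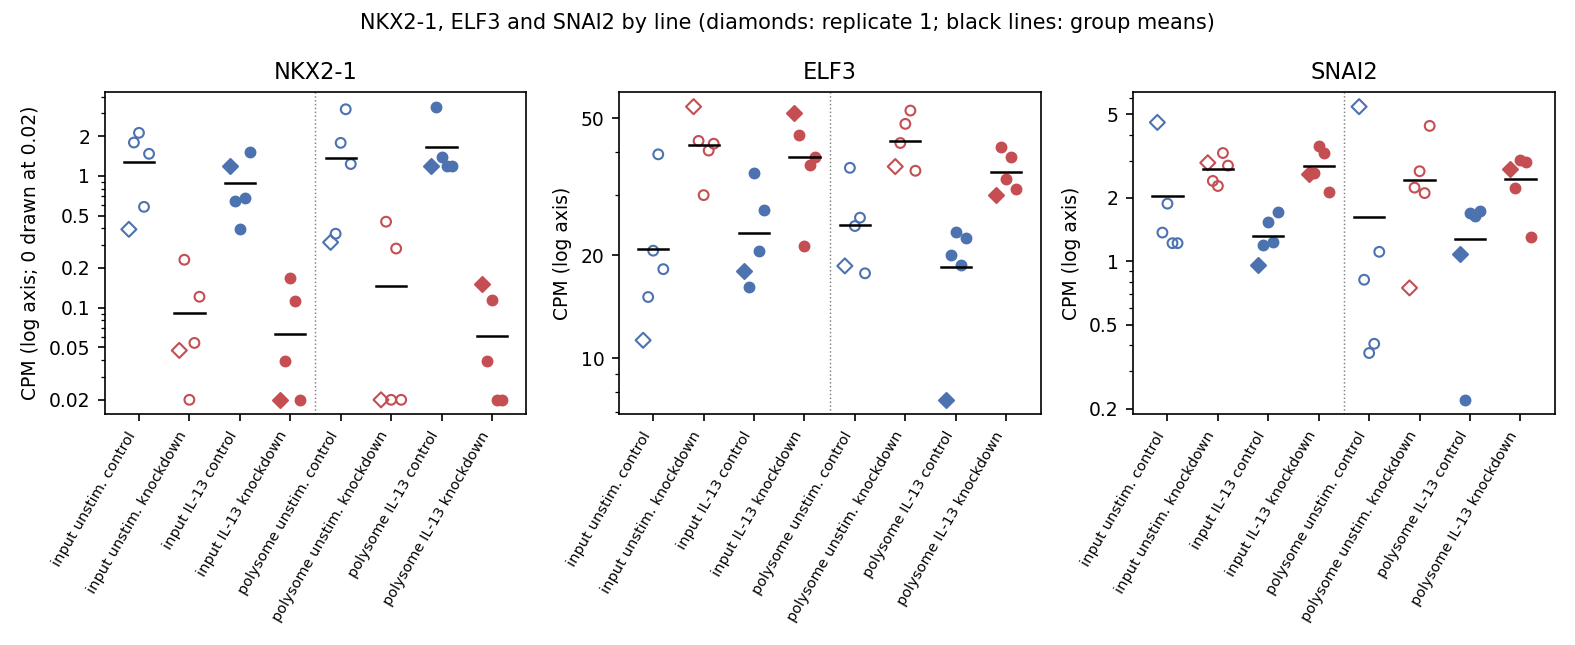
CPM on log axes in each library by group for NKX2-1, ELF3 and SNAI2 (blue, control line; red, knockdown line; open, unstimulated; filled, IL-13; diamonds, replicate 1; black lines, means of 5; values of 0 drawn at 0.02). NKX2-1 lay lower and ELF3 higher in the knockdown line, and SNAI2 lay higher there in input apart from replicate 1 of the unstimulated control group, with overlapping ranges in polysome.

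Promoter sequences are shown for ELF3 and NKX2-1, which were called, and for DSP, the desmosome gene with the largest polysome difference given further on. The motif marked was the E-box that SNAI and ZEB repressors are known to bind. A second motif, that of the factor STAT6, was counted without being marked. The sequences are from RefSeq (GRCh38.p14), run from 250 bases before to 50 after the annotated start, and are written 5′ to 3′ on the gene's strand, with each CAGGTG or its reverse complement CACCTG in capitals. ELF3 lies on the forward strand at chr1:202010337-202010636, NKX2-1 on the reverse strand at chr14:36520183-36520482 and DSP on the forward strand at chr6:7541421-7541720.
ELF3: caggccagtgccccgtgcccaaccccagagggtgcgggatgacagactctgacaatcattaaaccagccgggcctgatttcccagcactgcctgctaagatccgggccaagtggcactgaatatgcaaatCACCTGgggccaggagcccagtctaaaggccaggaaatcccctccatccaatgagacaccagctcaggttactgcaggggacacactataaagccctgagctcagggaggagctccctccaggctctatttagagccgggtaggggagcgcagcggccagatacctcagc
NKX2-1: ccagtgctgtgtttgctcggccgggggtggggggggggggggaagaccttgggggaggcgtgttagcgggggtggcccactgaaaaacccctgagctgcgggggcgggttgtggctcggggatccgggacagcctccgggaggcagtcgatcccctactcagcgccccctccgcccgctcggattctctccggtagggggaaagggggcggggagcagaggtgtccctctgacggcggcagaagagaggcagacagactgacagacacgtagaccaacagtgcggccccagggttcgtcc
DSP: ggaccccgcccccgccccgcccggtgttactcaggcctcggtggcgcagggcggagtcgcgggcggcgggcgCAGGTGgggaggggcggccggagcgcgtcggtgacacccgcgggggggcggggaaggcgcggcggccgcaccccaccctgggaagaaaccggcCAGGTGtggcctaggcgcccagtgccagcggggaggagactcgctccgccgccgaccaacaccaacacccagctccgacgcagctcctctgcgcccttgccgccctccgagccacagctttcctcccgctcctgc
ELF3 held 1 match, starting 120 bases before the start, DSP held 2, starting 178 and 85 bases before it, and NKX2-1 held none in this window. The promoter table matched 22 of the 40 genes, and CDH1, EPCAM, KRT18, KRT7, KRT19, ESRP1 and GRHL2 were among those without a promoter there. Of those 22, 9 (40.9%) held a match, as did 7231 of all 35116 promoters (20.6%). The 9 were ELF3, DSP, DSG2, OCLN, TJP1, KRT5, FOXA1, ZEB1 and S100A4. The difference in share was not tested, and nothing about the set is read from it. The STAT6 motif was held by 1 of the 22 (4.55%), OCLN, and by 2261 of the 35116 promoters (6.44%). A match is a run of letters and not a measured binding site.

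SNAI2, the transition factor also known as SLUG, was not called as a line difference but depended on the same replicate as SOX9 and CLDN1. Control input had 4.57, 1.37, 1.88, 1.22 and 1.22 CPM unstimulated and 0.958, 1.19, 1.53, 1.24 and 1.71 CPM with IL-13. Knockdown input had 2.94, 2.41, 2.28, 3.27 and 2.85 CPM unstimulated and 2.61, 2.63, 3.54, 3.28 and 2.14 CPM with IL-13. With IL-13 the lines did not overlap, and without it replicate 1 of the control line alone lay above all knockdown libraries. The mean difference was 0.75 ± 0.234 (edgeR, adjusted p = 0.14), and 1.02 (adjusted p = 0.00172) without that replicate.

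Other identity genes had an unadjusted p under 0.05 in input without being called. DSP differed by 0.50 ± 0.166 (edgeR, adjusted p = 0.172), ZEB1 by 0.40 ± 0.149 (0.255), FOXA1 by -1.04 ± 0.411 (0.292) and CLDN1 by -0.73 ± 0.317 (0.366). Without replicate 1 of the unstimulated control group the CLDN1 difference was -0.34. In polysome KRT19 differed by 0.43 ± 0.205 (0.557). The genes that define the level pattern showed little line difference in input: VIM 0.11 (95% interval -0.11 to 0.33), KRT8 0.11 (-0.20 to 0.42), KRT18 -0.02 (-0.27 to 0.23), CDH2 0.20 (-0.13 to 0.52) and KRT17 -0.05 (-0.37 to 0.28). For CDH1 the interval, -2.86 to 0.48, was again wide.

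Within single treatments no identity gene was called by edgeR. NKX2-1 came nearest, at -3.83 ± 0.795 unstimulated (adjusted p = 0.0686) and -3.55 ± 0.793 with IL-13 (0.0972) in input. Over all genes 18 of 16044 (0.112%; 1 lower, 0.00623%) and 23 of 16044 (0.143%; 3 lower, 0.0187%) were called in input, and 1 of 14582 (0.00686%) and 0 of 14582 (0.0%) in polysome. Of the identity genes, 4 and 4 in input and 3 and 2 in polysome had an unadjusted p under 0.05, against 6.35% and 6.64% of all genes in input and 4.0% and 4.78% in polysome. DESeq2 called 1 and 1 in input and 0 and 2 in polysome. A change of the line difference from input to polysome was called for 0 of 34 genes by edgeR or DESeq2 (0.0% of all genes by edgeR), with none at an unadjusted p under 0.05 (1.91% of all genes).

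**Figure D4:**
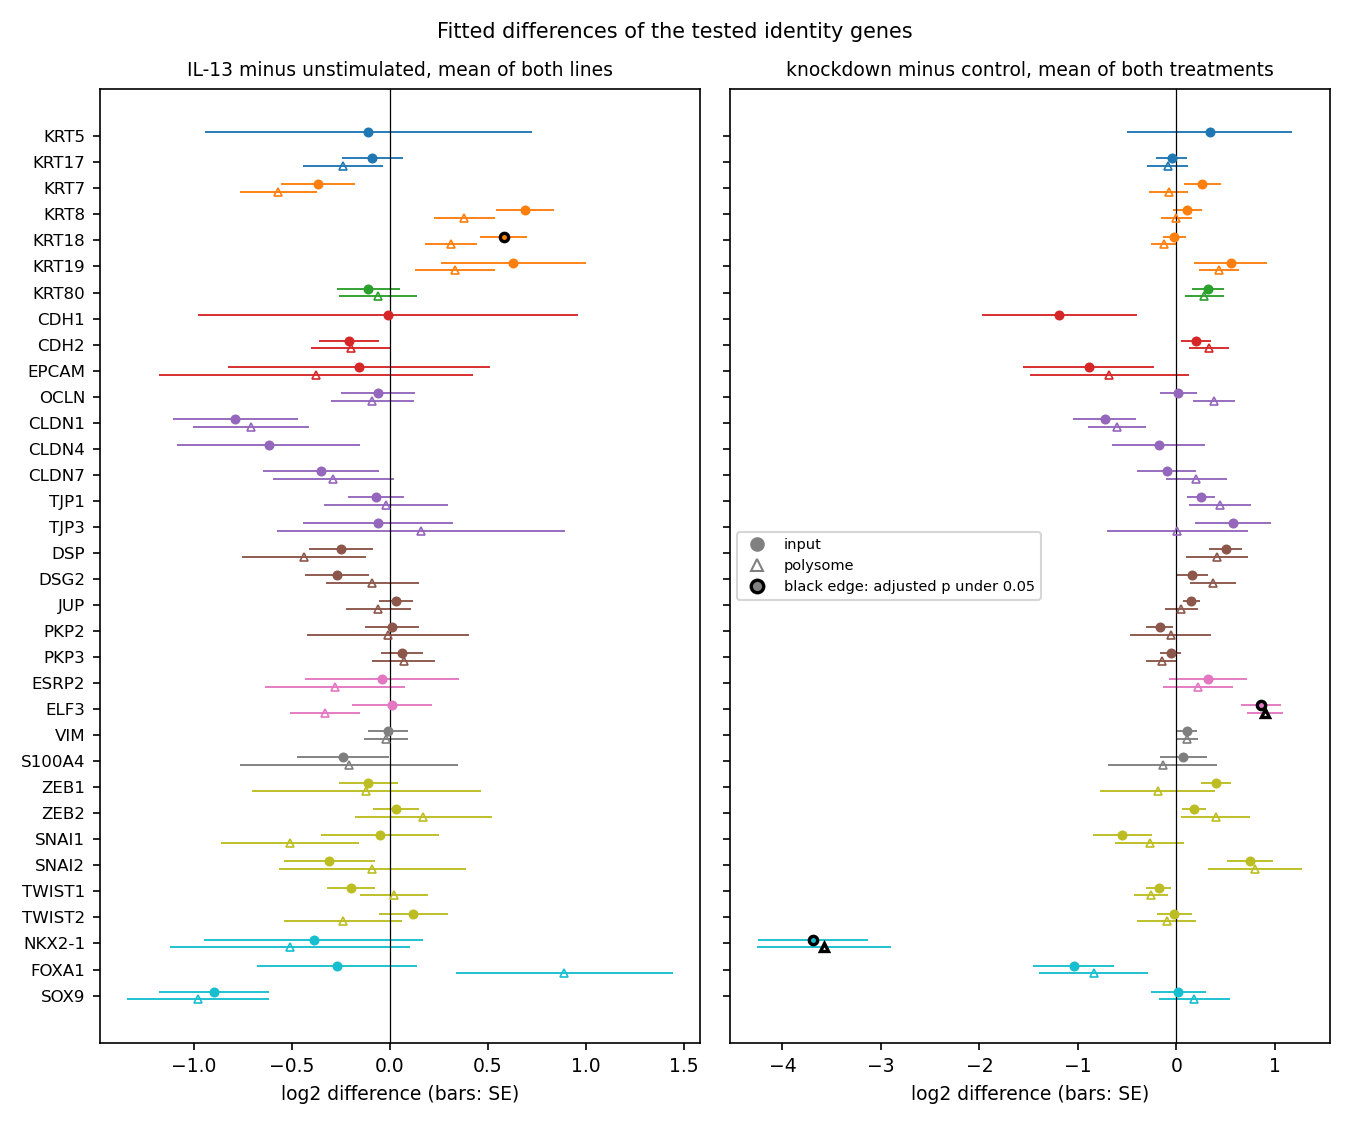
Fitted log2 differences with their standard errors for the tested genes, IL-13 minus unstimulated (left) and knockdown minus control line (right), in input (circles) and polysome (triangles), coloured by role, with black edges where the adjusted p was under 0.05. The black-edged points are KRT18 for IL-13 in input, and NKX2-1 and ELF3 between lines in both fractions.

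Genes called between lines in the wider epithelial list included 2 described here. The basal keratin KRT15 rose by 2.56 ± 0.534 in input (edgeR, adjusted p = 0.0148) and the plakophilin PKP1 fell by 0.64 (SE 0.149, adjusted p = 0.0318). KRT15 was a low-level gene, with an input median no higher than the 1.25 TPM of SNAI2. In the wider mesenchymal list, 4 of 34 were called, beside the 1.4% of all genes: the matrix protease MMP2 rose by 1.5 ± 0.22 (0.00086), the smooth muscle calponin CNN1 by 0.95 ± 0.149 (0.00139) and the caveolar protein CAV1 by 0.60 ± 0.119 (0.0112), and TGFB1 fell by 0.40 (SE 0.0916; 0.0284). The endothelial cadherin CDH5 was also higher in the knockdown line, by 3.28 ± 0.393 in input (adjusted p = 8.71e-05) and 3.31 ± 0.578 in polysome (0.0136). The summed level of the 7 endothelial markers ranged from 0.512 to 1.24 TPM in control and from 2.08 to 4.88 TPM in knockdown input, CDH5 being the 1 called and 4 of the 7 having a median of 0. Its part in the line differences was not tested.

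The third comparison set each gene's share of polysome RNA against its share of input RNA. Counts are relative within each library, so a difference is a shift in share of the fraction's RNA and not an absolute amount. As a mean over the 4 settings, 22 of the 34 passed the test, 7 with more and 15 with less in polysome, against 10900 of 16735 genes (65.1%), 4385 higher (26.2%) and 6515 lower (38.9%). The share called was therefore near that of all genes, and the medians were -0.40 for the identity genes and -0.239 for all genes. In the single settings 12, 14, 11 and 11 of 34 were called (unstimulated control, IL-13 control, unstimulated knockdown, IL-13 knockdown), against 40.2%, 39.3%, 38.5% and 39.3% of all genes.

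Desmosome RNAs went both ways. DSP, DSG2, JUP and PKP2 were lower in polysome and PKP3 was higher. DSP had 22.9 to 68.9 CPM in the 20 input libraries and 2.17 to 11.7 CPM in the 20 polysome libraries, with no overlap, and fell by 3.24 (SE 0.177; edgeR, adjusted p = 1.2e-18). DSG2 fell by 2.26 (SE 0.136; 1.99e-17), JUP by 1.99 (SE 0.0953; 2.68e-20) and PKP2 by 1.46 (SE 0.212; 1.45e-07), while PKP3 rose by 0.98 ± 0.103 (8.57e-11). Of the tight junction genes, TJP1 fell by 2.48 (SE 0.179; 3.52e-15), and the claudins CLDN1 (1.02 ± 0.225, adjusted p = 0.000148) and CLDN7 (0.98 ± 0.212, 0.000116) rose. KRT5 had a fitted difference of -3.40 ± 0.885 (0.00125), but its polysome counts were 0 in 16 of 20 libraries.

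The paired keratins KRT8 and KRT18 differed in polysome share. KRT8 fell by 1.55 (SE 0.116; edgeR, adjusted p = 8.87e-15), and KRT18 had a difference of 0.12 ± 0.0947 (0.251). In TPM the KRT8 to KRT18 ratio was 1.46 (1.03 to 1.67) in input and 0.45 (0.357 to 0.553) in polysome, a pair chosen after its values were seen. The ratio ranges did not overlap, which is a description with no test. VIM fell by 1.24 (SE 0.0795; 1.39e-16), so that VIM exceeded KRT18 in 20 of 20 input but 2 of 20 polysome libraries. CDH2 fell by 1.66 (SE 0.13; 4.04e-14).

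Among the transition factors, the zinc finger pair ZEB1 and ZEB2 fell by 1.70 (SE 0.29; edgeR, adjusted p = 2.8e-06) and 0.99 (SE 0.188; 1.68e-05), and TWIST2 by 0.38 (SE 0.164; 0.0408). TWIST1 rose by 0.26 ± 0.101 (0.0247) and SNAI1 by 0.55 ± 0.233 (0.0358), the latter losing its call in 12 of 40 fits without 1 library. SNAI2 had a difference of -0.20 ± 0.262 (0.508). Among the remaining called genes KRT80 (0.38 ± 0.134) and KRT7 (0.36 ± 0.142) were higher in polysome, and KRT17 (-0.42 ± 0.133), SOX9 (-0.66 ± 0.235) and CDH1 (-1.79 ± 0.639) lower. ELF3 and NKX2-1, the genes that differed between lines, had differences of -0.05 ± 0.139 and 0.55 ± 0.428, not called.

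**Figure D5:**
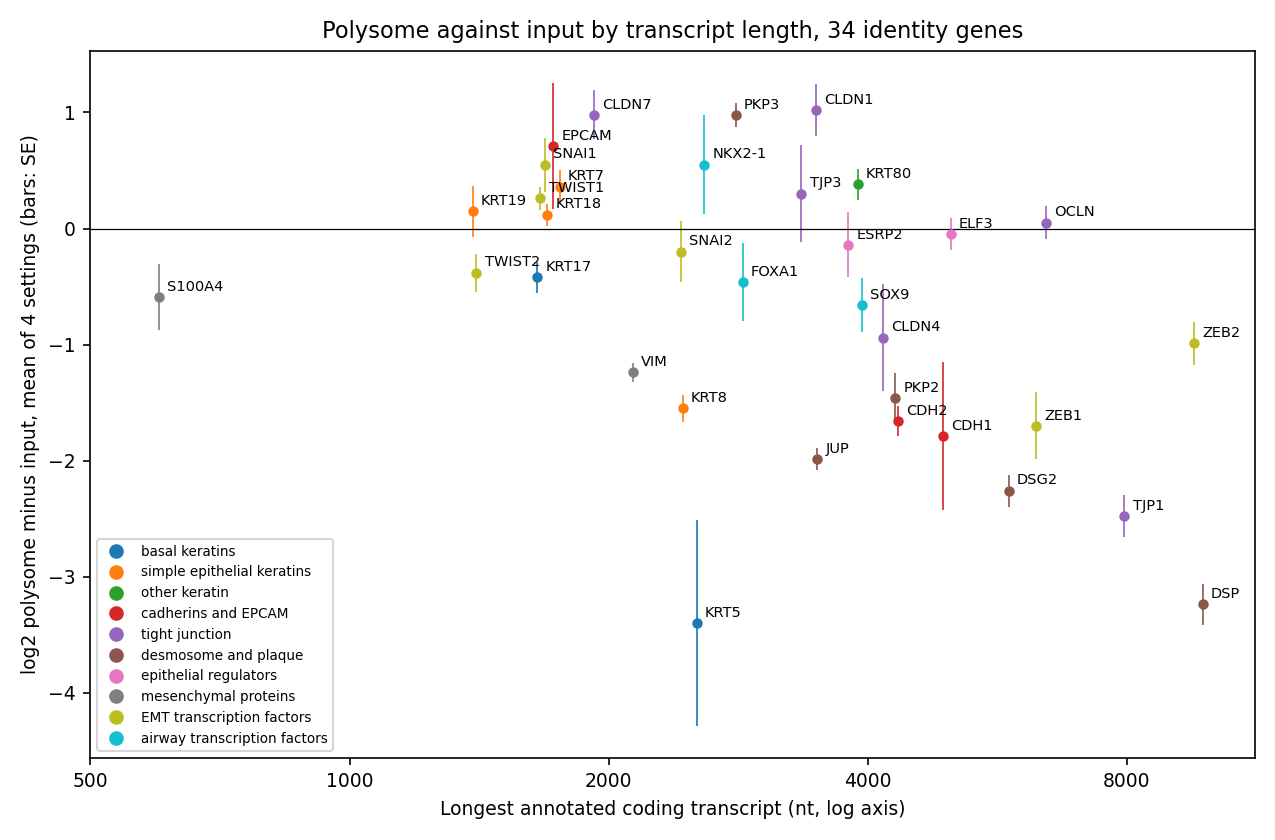
Log2 difference of polysome minus input (mean of 4 settings, bars SE) against the length of the longest annotated coding transcript in nucleotides (log axis) for the 34 tested genes, coloured by role. DSP, TJP1 and DSG2, with long transcripts, lay low, while KRT8, VIM and JUP lay below most genes of like length and OCLN, at 6438 nt, lay near 0.

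Transcript length varied with these differences. The longest coding transcript in the GENCODE 29 annotation, the one at hand, ran from 600 nt (S100A4) to 9796 nt (DSP), and over the 34 genes its Spearman correlation with the polysome difference was -0.48 (Pearson -0.47 on log2 length), a description over genes that share the same 40 libraries. All 34 had a length, which need not be the one behind the TPM. In unstimulated control input replicate 1, ZEB2 (9583 nt) had 802 counts and 7.63 TPM, and DSP (9796 nt) 1267 counts and 6.61 TPM. The longest transcript therefore stands only roughly for the length used in quantification. Of all tested genes 13317 had one (79.6%), and among those genes the Spearman correlation was -0.38 and the Pearson correlation -0.36. The genes without a length are not covered, so these values describe part of the genes and no check over all genes is drawn from them. Nothing particular to the identity genes is read from theirs. The part of length in these differences was not tested.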

How the data were processed

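RNA of 40 libraries (8 groups of 5) was polyA-selected and sequenced paired-end with stranded kits, per the labels' protocols. Trimmomatic, Salmon, MultiQC and DESeq2 are named in the submitters' processing notes; genome build, annotation and versions are not given in the sources used here. The authors deposited estimated counts per gene, which were rounded to whole numbers, and TPM, scaled for length and depth. The deposited TPM summed to between 82.3% and 85.9% of the full TPM scale. Of 62263 rows, 17 matched no symbol.

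Counts were tested with edgeR 4.0.16 (TMM scaling, filterByExpr, quasi-likelihood test; R 4.3.3), separately in input (16044 genes) and polysome (14582), since the biological coefficient of variation was 0.332 and 0.481, and over all libraries for polysome against input (16735). P-values were adjusted over all genes at 0.05. CPM are TMM-scaled. The p-values measure the spread between these libraries. The alternatives were DESeq2 1.42.0 tests and size factors, no filter, a length offset, a replicate block, 1 fit of all libraries, and leaving out libraries. The method was tried on simulated data with planted changes larger than those of KRT18, KRT8 and ELF3. That trial does not show how well changes of their size are found.

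Genes given library by library were those called, up to 6 more of smallest p under 0.05 per mean contrast, and identity anchors. For polysome against input, the 5 called genes of largest fold each way were chosen, and other called genes are also given. The 40 genes and the companion lists were chosen with earlier results of these data known. Some results for genes of the wider epithelial list are not reported here.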

Additional observations from a re-analysis of the deposited data

Results flagged for a closer look

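The 20 identity genes chosen for library-by-library description were examined in the 8 groups, and the others were not. There were 147 groups of 5 with more than 3 counts of such a gene in a library. In 22 of them, 1 library was set apart from the other 4 by a gap above 0.71 of the group's range. For independent, normally distributed values that limit would be passed by about 1 in 20, or 7.35. These CPM values share libraries, some rest on few counts, and some genes were chosen by p-value, so no excess is read from the 22. All values here are CPM, and none has an explanation that was tested.

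Replicate 1 of the unstimulated control group accounted for 8 of the 22, all high. Its input values were 175 for CLDN1 (others 25.1 to 62.3), 95.4 for SOX9 (14.7 to 23.3), 4.57 for SNAI2 (1.22 to 1.88) and 0.571 for KRT14 (0.0897 to 0.175). Its polysome values were 388 for CLDN1 (57.3 to 78.3), 73.7 for SOX9 (5.14 to 17.2), 5.43 for SNAI2 (0.367 to 1.11) and 45.1 for CDH2 (13.3 to 22.5). CLDN1, SOX9 and SNAI2 stood apart in both fractions of this replicate number.

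In the unstimulated knockdown polysome group, replicate 5, the shallowest library, had a low KRT8 value of 214 (389 to 431) and a ZEB1 value of 5.87 (0.748 to 1.55) from 12 counts, and replicate 3 had 361 for KRT7 (184 to 229). In IL-13 knockdown polysome, replicate 4 was high for KRT7 at 264 (129.7 to 152), KRT5 at 0.644 (0 to 0.158) and FOXA1 at 1.09 (0.433 to 0.526). FOXA1 was also high in unstimulated knockdown input replicate 4, at 1.46 (0.278 to 0.606), and in IL-13 knockdown input replicate 2, at 0.785 (0.42 to 0.468). CDH1 reached 2.44 in IL-13 knockdown input replicate 3 (0 to 0.706) and 0.265, or 9 counts, in IL-13 control polysome replicate 4, where the others were 0. TP63 was 0.133 (5 counts) in unstimulated control input replicate 3 and 0.176 (6 counts) in IL-13 control polysome replicate 4, with the others at 0. KRT14 was 1.1 in IL-13 control input replicate 5 (0 to 0.128), and NKX2-1 was 3.35 in IL-13 control polysome replicate 2 (1.18 to 1.4).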

How the results depend on the processing

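Directions were followed through the alternatives for genes chosen for library-by-library description with an unadjusted p under 0.05 in a mean contrast. They were also followed for the genes of largest fold in polysome against input. None of these reversed, and the other differences were not followed. The 1 gene called for IL-13 in input, KRT18, became 0 with all 40 libraries in 1 fit (adjusted p = 0.0534), with DESeq2 size factors (0.0524) and with the replicate number as a block (0.0937), and 2 genes were called with the DESeq2 test (KRT8 0.00241) and with no filter (KRT8 0.0345). Between lines in polysome, the 2 calls became 0 without libraries under 5000000 counts. With IL-13, the 0 calls between lines became 1 with the DESeq2 test and 2 without replicate 1 of the unstimulated control group in input, and 1 with all 40 libraries in 1 fit and 2 with the DESeq2 test in polysome. Without IL-13 in input, 0 became 1 with the DESeq2 test and 1 without that replicate. Genes at 1 TPM in polysome fell from 24 to 15 when every library had to reach it. SNAI1 in polysome against input had an adjusted p of 0.0819 with no filter. Leaving out 1 library at a time gave 0 to 2 calls for IL-13 in input, 1 to 3 between lines in input, 0 to 2 in polysome, 0 to 1 unstimulated and 0 to 2 with IL-13 between lines in input, and 20 to 23 for polysome against input.

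For polysome against input, DESeq2 size factors moved the median of all genes from -0.239 to -0.18. A length offset moved it to -0.118 and leaving out the shallow libraries to -0.124. With line, treatment and replicate number together as a block, the median was -0.342. Under these settings the identity genes called numbered between 21 and 23.

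Counts over all genes moved more. The 224 called between lines in input became 68 with all 40 libraries in 1 fit and 465 with the DESeq2 test. The 40 in polysome became 231, 197 and, without the shallow libraries, 22. The 38 called for IL-13 in input became 25 and 90, and the 21 in polysome 35 and 43.

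Within a fraction the shared numbers did not pair the samples. Same-numbered input libraries of different groups had correlations from -0.283 to 0.477, with 7 of 30 over 0.1. Of the input libraries, 3 of 20 correlated best with their own number, and in polysome the counts were 10 of 30 and 2 of 20. Input and polysome of the same line, treatment and number had correlations from -0.333 to 0.542. Of these, 7 of 20 were over 0.1, against 21 of 80 for another number. CLDN1, SOX9 and SNAI2 still stood apart in both fractions of unstimulated control replicate 1. With the replicate number as a block, calls between lines went from 2 to 1 in input (ELF3 adjusted p = 0.0809) and from 2 to 0 in polysome (ELF3 0.0598, NKX2-1 0.0995), and over all genes in polysome from 40 to 3. Depth limits the sparse genes most: CDH1, EPCAM, KRT5, NKX2-1 and FOXA1 rest on at most 140 counts a library.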
